A study of Paxillus involutus with 12 samples.

Results

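This account describes 113 of 12214 array sequences of the ectomycorrhizal fungus Paxillus involutus, 0.925%, that kept a nearly constant level over the first 3 harvests of a carbon starvation course and stood higher at the last one. They were chosen by their measured values: the means over the 3 arrays of days 2, 6 and 8 had to lie within 0.4 of each other on the log2 scale, which is 1.32-fold, and the day 13 mean had to exceed the highest of those 3 means by at least 1, which is 2-fold. That excess over the highest earlier mean is called the rise below. Because all 12 arrays entered the choice, every difference between days given here describes the chosen sequences and tests nothing. The label fits the values it was built on, with a limit given below for the 1 sequence close to the array's background.

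Paxillus involutus strain ATCC 200175 was pre-cultured for 10 days, starved of nitrogen for 24 h and then kept axenically on glass beads in Minimum Melin Norkrans medium, amended with ammonium so that its C/N ratio was 3. Mycelium was harvested after 2, 6, 8 and 13 days. Each day had 3 biological replicates of 2 pooled cultures, hybridised to the 12 subarrays of 1 NimbleGen chip with 1 colour. All 4 groups share the strain, the medium and the nitrogen starvation, and no carbon-supplied culture of the same age was analysed here, so starvation and culture age cannot be told apart.

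Ectomycorrhizal fungi live on sugar from the roots of trees and supply the tree with mineral nutrients in return. When carbon runs out, a fungal colony can keep parts of its mycelium alive by breaking down others: autophagy carries cytoplasm and organelles to the vacuole, where they are degraded, and the products are moved on or respired. In starving fungal cultures, secreted and vacuolar hydrolases, wall-degrading enzymes and catabolic enzymes for amino acids and lipids are among the proteins commonly made. None of these roles can be assigned to a sequence here. The gene information field was empty on all 12 arrays, 0 of the 12214 identifiers matched a reference table that lists 18033 genes, and the files do not pair identifiers with names or hold the probe sequences. The sequences are therefore described by their identifiers, and several may stem from the same gene.

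The median log2 value of an array was 11.35 to 11.38, which RMA, the authors' normalisation, sets by giving every array nearly the same distribution. Background, read from a control feature of random sequence, was 4.49 to 4.70. All 113 sequences were measured with 10 probe pairs, and 112 of them were at least 2-fold above the control on every array, 99.1% against 94.4% of all sequences. The 3 arrays of a day have consecutive array numbers on the chip, so position and harvest day cannot be told apart. The descriptions of the samples titled day 6 and day 8 carry 2 position numbers that disagree. The choice treats days 2, 6 and 8 alike, so an exchange of days 6 and 8 leaves the same 113 sequences.

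Constancy up to day 8 was common, and a rise after it was not. In all, 6137 sequences, 50.2%, kept their 3 early means within 0.4, and the 113 are 1.84% of them. A day 13 mean at least 1 above every earlier mean was found for 285 sequences. The 113 are 39.6% of these, below the 50.2% of all sequences that were flat. The other 172 had moved by 0.4 or more between days 2, 6 and 8. The mirror image, an equally flat early course followed by a day 13 mean at least 1 below every earlier mean, held for 79 sequences, 1.29% of the flat ones. Just inside the bound on the early range were paxillus_4176 and paxillus_1138, both at 0.397, and just outside it were paxillus_727 and paxillus_10394 at 0.402. Just inside the bound on the rise were paxillus_9835 at 1.00 and paxillus_5844 at 1.02, and just outside it were paxillus_9631 at 0.995 and paxillus_5619 at 0.994. The bounds therefore cut through a continuous field of points, as the plot of early range against rise shows.

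**Figure D1:**
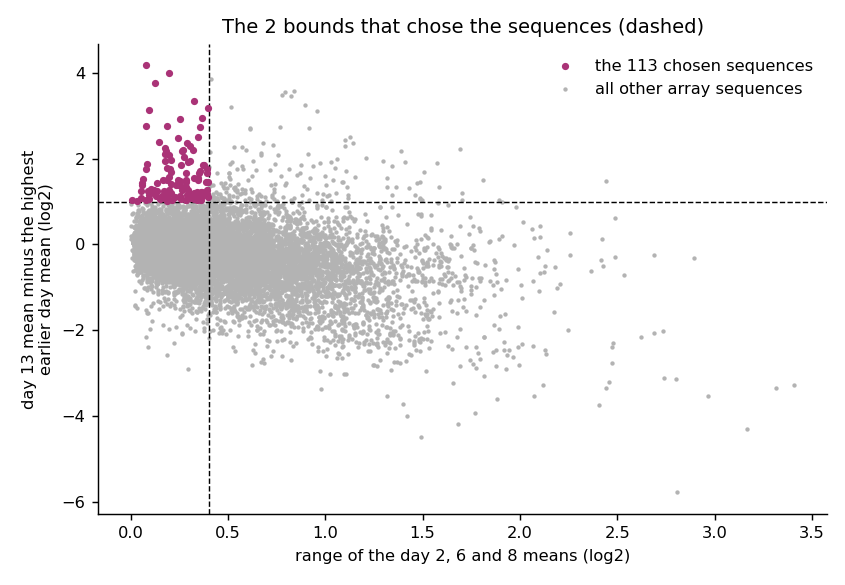
Each point is 1 of 12214 array sequences, with the range of its day 2, 6 and 8 means on the horizontal axis and its day 13 mean minus the highest of those means on the vertical axis, both on the log2 scale. The dashed lines at 0.4 and 1 are the bounds of the choice; the 113 chosen sequences fill the upper left field without a gap towards their neighbours, and 6 of them lie at 3 or above.

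Under RMA a rise is relative to the other sequences, and more RNA per cell and more cells of a kind cannot be told apart. The rises ran from 1.00 to 4.18 on the log2 scale, with a median of 1.40 and quartiles of 1.16 and 1.88. In linear terms the median was 2.65-fold and the largest 18.1-fold. At 3 or more stood 6 sequences, between 2 and 3 stood 18, between 1.5 and 2 another 24, and the remaining 65 lay below 1.5. The 172 sequences that rose from a less even early course had a median of 1.37 and a maximum of 3.85, and 16.9% of them reached 2, against 21.2% of the 113. The losses of the 79 mirror sequences were shallower: their median was 1.24, their deepest 2.62, and 6.33% of them reached 2. These 3 sets were chosen on the same values, so the differences between them are descriptions. Both the rise and the early range are cut by the bounds. Correlations within the 113 therefore cannot show whether level or evenness goes with the rise in general. Across the 113 sequences, which share the same 12 arrays, the rise correlated with the mean early level at r = -0.03 (Pearson) and rho = -0.07 (Spearman), and with the early range at rho = 0.03 (Spearman).

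**Figure D2:**
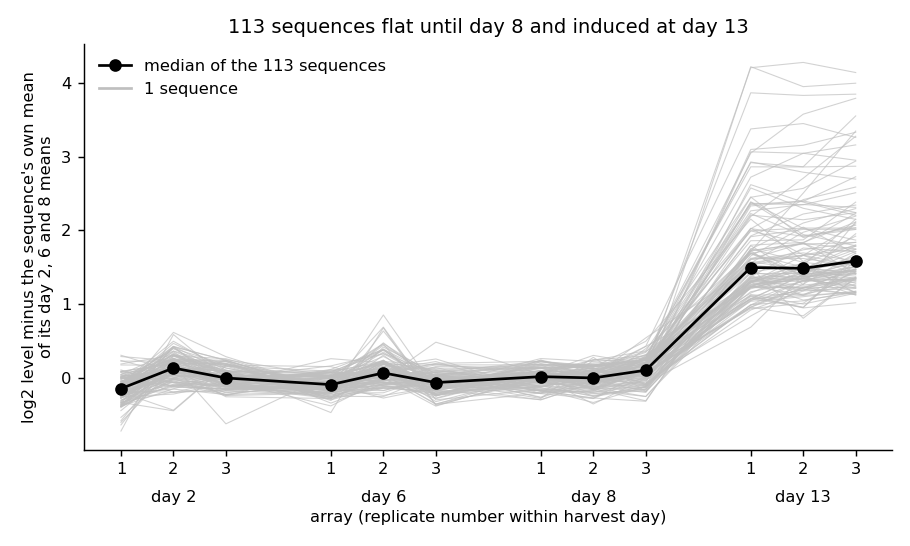
Each grey line is 1 of the 113 sequences over the 12 arrays, as its log2 level minus the mean of its own day 2, 6 and 8 means, and the black points are the medians over the 113 sequences. The medians stay between -0.15 and 0.13 on the 9 arrays of days 2, 6 and 8 and reach 1.49 to 1.59 on the 3 arrays of day 13; lines join arrays of the same sequence only, and the replicates of a day have no order.

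On every one of the 113 sequences the 3 day 13 arrays lay above all 9 earlier arrays, where 17.6% of all sequences showed this; the choice favours it. The distance between the lowest day 13 array and the highest earlier array had a median of 1.10 and ranged from 0.27 to 3.69, and it was 1 or more for 66 sequences. The count of 66 was not made over all sequences, and the 17.6% covers a distance of any size. The narrowest distance was that of paxillus_5926, which had 10.38, 9.70 and 10.25 on the log2 scale at day 13, against 8.45 to 9.43 on the earlier arrays. The gap is 1.20-fold, and the highest earlier array was day 8 array 3. In the fit by limma, a linear model with a moderated test, of all 12214 sequences, all 113 were called higher at day 13 than at day 8, where 25.8% of all sequences were, higher than at day 6, where 29.6% were, and higher than at day 2, where 34.4% were (Benjamini-Hochberg adjusted p under 0.05). The choice used these contrasts, and nothing is read from the counts. The 3 contrasts also share the day 13 arrays.

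The largest rise was that of paxillus_10215. Its log2 levels were 10.04, 10.09 and 10.19 at day 2, 10.08, 10.55 and 9.73 at day 6, 9.88, 10.05 and 10.20 at day 8, and 14.30, 14.37 and 14.23 at day 13. The 3 day 13 arrays differed by less from each other than the 3 day 6 arrays did, and the gap to the highest earlier array was 3.69. paxillus_9708 had 14.56, 14.29 and 14.34 at day 13, against 10.16 to 10.71 on the 9 earlier arrays with a median of 10.27, a rise of 3.99 or 15.9-fold. paxillus_2376 had 14.34, 14.31 and 14.32 at day 13, against 10.09 to 10.90 with a median of 10.45, a rise of 3.77 or 13.6-fold. In all 3 sequences no early array came near a day 13 array. The replicates of paxillus_2376 were closest at day 13, with an SD of 0.02, against 0.42 at day 2 (n = 3 each), whereas those of paxillus_9708 had an SD of 0.14 at day 13, against 0.04 at day 8.

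paxillus_9929 and paxillus_12502 followed, from earlier arrays of 8.45 to 8.97 and of 7.69 to 8.51. paxillus_9929 had 11.75, 12.28 and 12.50 at day 13, a rise of 3.35 or 10.2-fold. paxillus_12502 had 11.46, 11.53 and 11.34 at day 13, a rise of 3.19 or 9.11-fold, and it stood at the edge of the choice with an early range of 0.40. paxillus_2380 had 14.11, 14.17 and 14.35 at day 13, against 10.67 to 11.43 on the earlier arrays, a rise of 3.15 or 8.87-fold. These 6 sequences form the group with a rise of 3 or more. The smallest distance among them between the lowest day 13 array and the highest early array was that of paxillus_2380, at 2.69.

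The next 6 rises lay between 2.50 and 2.95. paxillus_9862 (11.31, 11.26 and 11.95 at day 13, against 8.10 to 8.66 earlier) had 1 day 13 array above the other pair. paxillus_9025 (13.94, 13.92 and 14.04, against 10.70 to 11.07) and paxillus_10168 (13.84, 14.16 and 14.07, against 10.84 to 11.38) had day 13 arrays within 0.4 of each other. paxillus_4647 reached 14.56, 14.56 and 14.57 at day 13, against 11.31 to 12.08 earlier. Its SD at day 13 was 0.0053, against 0.25 to 0.29 on the earlier days. paxillus_10475 had 14.45, 14.32 and 14.22 at day 13, against 11.24 to 12.16, and its highest early value was that of day 6 array 2. paxillus_12320 had 12.73, 13.25 and 13.82 at day 13, against 10.26 to 11.16, so that its day 13 arrays were spread over more than its whole early range of single arrays. Across the 113, the highest value on any array was 14.79, that of paxillus_5037 on day 13 array 1, and 15.57 was the highest of any sequence at day 13. A day 13 mean of 14 or more was reached by 10 of them.

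**Figure D3:**
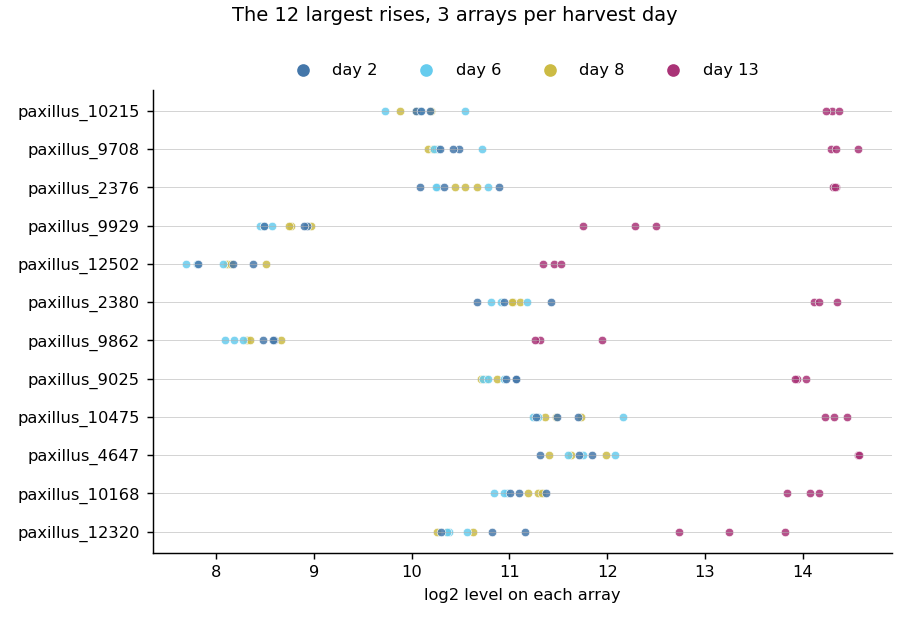
Each point is the log2 level of 1 array for the 12 sequences with the largest rises, ordered from the largest at the top, with colours for the 4 harvest days. The day 13 points of each sequence lie to the right of all its earlier points, tightly in paxillus_2376 and paxillus_4647 and widely in paxillus_12320.

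The smallest early range was that of paxillus_2076, with day means of 10.48, 10.48 and 10.49 at days 2, 6 and 8. Its arrays read 11.44, 11.33 and 11.84 at day 13, against 10.36 to 10.61 on the earlier arrays, a rise of 1.05. paxillus_9835 had early means of 12.99, 12.96 and 12.96, and paxillus_6231 of 7.88, 7.83 and 7.88, with rises of 1.00 and 1.25. The median early range of the 113 was 0.25, 16 sequences stayed below 0.1, and 37 had 0.3 or more. Day 8 differed from day 2 by the limma test in 22 of the 113, 17 higher and 5 lower, where 59.4% of all sequences were called. Day 6 differed from day 2 in 7, where 46.1% of all were called, and day 8 from day 6 in 5, where 25.9% were. The choice limits early differences, so the nearer comparison is with the 6137 flat sequences, which pass the same bound. Of the 113, 19.5% were called between days 8 and 2, 6.19% between days 6 and 2 and 4.42% between days 8 and 6, against 30.1%, 18.4% and 8.82% of the flat sequences. With a call in at least 1 of these 3 comparisons there were 27 of the 113, 23.9% against 40.1% of the flat sequences. The rule used these contrasts, and the difference was not tested. The replicates of the 113 were also spread more widely on these 3 days than those of all sequences. For the flat sequences alone the spread was not taken. At an equal difference a wider spread gives fewer calls. Whether it lowered the shares here was not tested, and the shares do not show that the 113 were flatter.

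Within the flat phase no single order of the days prevailed. The highest early mean fell on day 8 in 47 sequences, on day 2 in 35 and on day 6 in 31. A steady increase over days 2, 6 and 8 occurred in 26 sequences, 23.0% against 22.4% of all 6137 flat ones, and a steady decrease in 15, 13.3% against 20.3%. The median of the day 8 mean minus the day 2 mean was 0.05 over the 113 and 0.01 over all flat sequences. With days 6 and 8 exchanged, the counts of 47 and 31 change places. The 26 and 15 would then run in the order of days 2, 8 and 6 and would not be steady courses. The medians of 0.05 and 0.01 would compare day 6 with day 2.

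A single sequence was not clearly above background before day 13. paxillus_13312 read 6.00, 6.69 and 6.88 on the log2 scale at day 13, and 5.48, 5.48 and 4.68 at day 2, 5.35, 5.50 and 5.35 at day 6 and 5.29, 5.41 and 5.23 at day 8. On 0 of the 9 earlier arrays and on all 3 day 13 arrays it was 2-fold or more above the random-sequence control. Its early level is therefore only bounded: taking the lowest signal at that margin on each array in its place, it was at least 1.82-fold higher at day 13. The other 112 had measured levels on both sides.

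The deviations of single arrays from their own day mean did not enter the choice, which used only day means. On several arrays most of the 113 deviated to the same side. On day 6 array 2, 90 of the 113 lay above their day 6 mean, 79.6% against 52.0% of all sequences. On day 2 array 2, 98 did, 86.7% against 56.6%, and on day 8 array 3, 85 did, 75.2% against 55.0%. These 3 arrays, picked because they did so most often, held the highest of the 9 early values for 92 of the 113 sequences. That count was not made over all sequences. Day 2 array 2 was the highest of its own day in 75.2% of the 113, against 43.2% of all sequences. For day 6 array 2 the shares were 68.1% and 34.4%, and for day 8 array 3 they were 61.9% and 41.2%. At day 13, array 3 was above the day mean in 76 sequences, 67.3% against 48.6%, and array 1 in 41, 36.3% against 49.6%. The 172 sequences that rose after a less even course behaved alike on the early arrays, with 84.9% above the day mean on day 6 array 2 and 80.8% on day 8 array 3. Of the 79 mirror sequences, 27.8% and 32.9% were above it on the same 2 arrays, below the shares of all sequences. On day 2 array 2 their share was 50.6%. At day 13 the mirror sequences lay mostly above the day mean on array 2, 87.3% against 56.0% of all sequences, and 43.4% of the 113 did. The median level of the 113 on the early arrays was 10.38 to 10.77, against array medians of 11.35 to 11.38. No set of sequences of the same level was set beside them. Each day has 3 arrays, so these are descriptions of single arrays, and what set them apart was not tested.

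**Figure D4:**
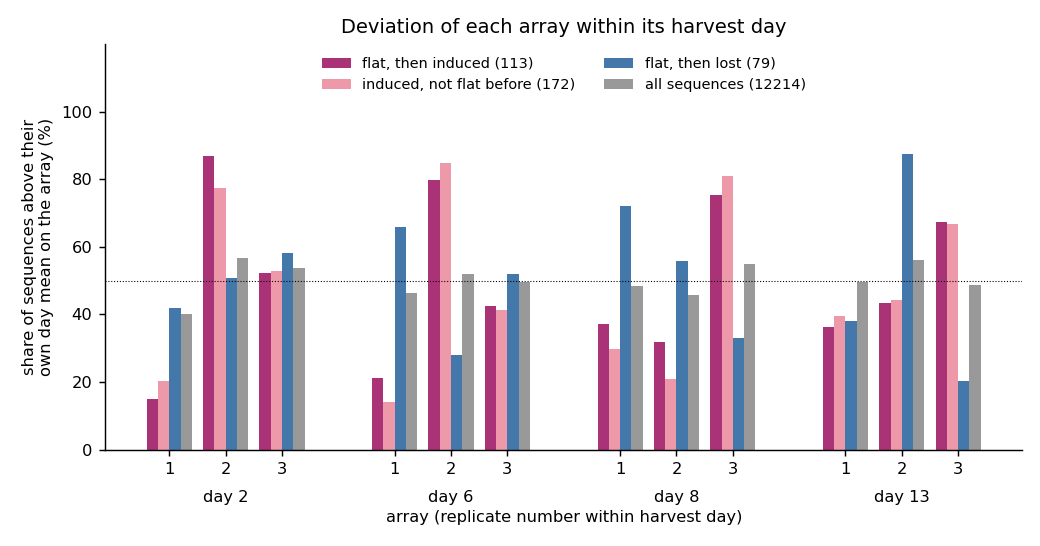
Bars give, for each of the 12 arrays, the share of sequences whose log2 level lay above their own mean of that harvest day, for the 113 flat and then induced sequences, the 172 induced without an even early course, the 79 flat and then lost, and all 12214 sequences; the dotted line is at 50%. The 113 stand highest on day 2 array 2, day 6 array 2 and day 8 array 3, at 86.7%, 79.6% and 75.2%.

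On day 2 array 2, day 6 array 2 and day 8 array 3 the excess was larger in the 24 sequences with a rise of 2 or more than in the other 89. The median deviation was 0.22 against 0.13 on day 2 array 2, 0.19 against 0.07 on day 6 array 2 and 0.11 against 0.05 on day 8 array 3. The shares above the day mean were 91.7% against 85.4%, 87.5% against 77.5% and 91.7% against 70.8% on the same arrays. The 2 largest deviations of any early array fell on day 6 array 2. A deviation of at least 0.25 from the day mean was found there in 19 of the 113, 16.8% against 1.76% of all sequences, and across the 113 the deviation correlated with the rise at r = 0.42 (Pearson) and rho = 0.40 (Spearman), as a description over sequences measured on the same arrays. Of the 12 largest rises, 11 had a positive deviation there. The largest deviations were those of paxillus_9740 and paxillus_12216. paxillus_9740 read 10.98, 12.13 and 11.08 at day 6 and 13.84, 13.48 and 13.32 at day 13, and paxillus_12216 read 10.65, 11.71 and 10.69 at day 6 and 13.30, 13.43 and 13.80 at day 13. In both, day 6 array 2 was the highest early array and still lay more than 1 below every day 13 array. paxillus_10475 and paxillus_6168 showed the same with 12.16 and 12.05 on that array, against 11.24 to 11.29 and 11.06 to 11.28 on the other day 6 arrays. In these 4 sequences 1 array of day 6 departed from the flat course that the day means show. Whether its culture pool or its measurement differed was not tested.

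The deviation on day 6 array 2 correlated with day 13 array 1 minus day 13 array 3 at r = 0.35 (Pearson) and rho = 0.35 (Spearman) across the 113, and at 0.07 and 0.05 across all sequences. Of the 19 sequences with a deviation of at least 0.25, 11 were highest on array 1 among the day 13 arrays and 6 on array 3. Over the 113 the shares were 23.0% for array 1 and 56.6% for array 3, and over all sequences 31.0% and 29.0%. Other combinations of arrays were not compared in this way. paxillus_9740, paxillus_6168 and paxillus_5865 were highest on day 13 array 1 among the day 13 arrays, at 13.84, 13.98 and 13.12, against 13.32, 13.57 and 12.69 on array 3. paxillus_12216, with the second largest deviation on day 6 array 2, was lowest on day 13 array 1, as were paxillus_10512 and paxillus_12320, the sequences with the widest day 13 spread. paxillus_10512 had 9.68, 10.46 and 11.31 at day 13, an SD of 0.81, against 7.37 to 8.25 on the earlier arrays. It had a deviation of only 0.04 on day 6 array 2.

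The spread between replicates was wider for these sequences than for the array as a whole before the rise, and about the same after it. For the 113, the median SD (n = 3) was 0.166, 0.137, 0.0977 and 0.148 on the 4 days in order of time, and for all sequences it was 0.129, 0.0790, 0.0771 and 0.139. At day 6, 81 of the 113 exceeded the median SD of all sequences, and at day 13 the number was 62.

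The rise was also seen on arrays left out of a choice, which share the chip, the harvest days and the normalisation with the others. They are not an independent experiment. When the bounds were applied to the means of the 8 arrays left after removing replicate 1 of every day, 111 sequences were chosen, of which 94 are among the 113. On the 4 removed arrays, day 13 stood at least 1 above the highest earlier array in 86 of the 111, 77.5% against 2.46% of all sequences, and their median difference was 1.28. With replicate 2 removed, 82 of 131 did so, 62.6% against 2.23%, with a median of 1.19. With replicate 3 removed, 88 of 104 did, 84.6% against 2.58%, with a median of 1.42. The early range on the removed arrays stayed below 0.4 in 65.8%, 48.9% and 59.6% of the chosen sequences, against 49.1%, 43.3% and 45.5% of all sequences. The replicate numbers come from the titles, and whether same-numbered arrays belong together is not known. A difference of at least 1 was thus met on the unused arrays by most of the chosen sequences in each of the 3 cases. The bound on the early range was met there by shares much nearer to those of all sequences. That range was taken over single arrays, which vary more than the means for which the bound was set. The shares over all sequences also differ widely between the 2 bounds, so the 2 outcomes cannot be ranked.

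Some of the 113 sequences carry neighbouring numbers. Of the 113, 10 had another of them at the next number, in 5 pairs, which is 8.85%, and 4 of the 79 mirror sequences had such a neighbour, 5.06%. paxillus_5145 and paxillus_5146 differed by at most 0.22 on any array, with rises of 1.18 and 1.17 and within-day deviations that correlated at r = 0.92 over the 12 arrays. For paxillus_5278 and paxillus_5279 the rises were 2.19 and 2.09 and r was 0.97, and for paxillus_2373 and paxillus_2374 the rises were 1.79 and 1.97 and r was 0.85. paxillus_4410 with paxillus_4411 and paxillus_8727 with paxillus_8728 reached r = 0.57 and 0.47, where the median over all 11427 pairs of neighbouring numbers was 0.17. Most of the 113 deviated to the same side on several arrays, as given above. Pairs of the 113 with distant numbers were not set beside these pairs, so the correlations cannot be ascribed to neighbouring numbers. Counted once each, the 5 pairs would leave 108. The files hold no sequences, and whether neighbours stem from 1 gene was not tested.

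The densest stretch, singled out after its values were seen, ran from paxillus_2371 to paxillus_2380, where 5 of the 8 sequences on the array were chosen. paxillus_2376 and paxillus_2380 were the strongest, with rises of 3.77 and 3.15 to day 13 means of 14.32 and 14.21. paxillus_2371, paxillus_2373 and paxillus_2374 had rises of 1.49, 1.79 and 1.97 to day 13 means of 11.63, 10.81 and 10.97. Between them, paxillus_2375 and paxillus_2377 had only 0.54 and 0.46, and the day 13 mean of paxillus_2379 was below its highest earlier mean, at a rise of -0.60. paxillus_2369, before the stretch, missed the bound with 0.96. A similar mix stood at paxillus_376 and paxillus_378, with rises of 1.76 and 2.19: paxillus_375 had a rise of 1.75 but an early range of 0.55, and paxillus_377 between the chosen pair had a rise of -0.36. At paxillus_3610 and paxillus_3613, with rises of 1.13 and 1.21, paxillus_3609 and paxillus_3611 had 1.03 and 0.92 with early ranges of 0.59 and 0.48. Of the 190 direct neighbours of the 113 that were not chosen themselves, 30 had a rise of at least 0.5, 15.8% against 8.10% of all sequences, and 8 a rise of at least 1.

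**Figure D5:**
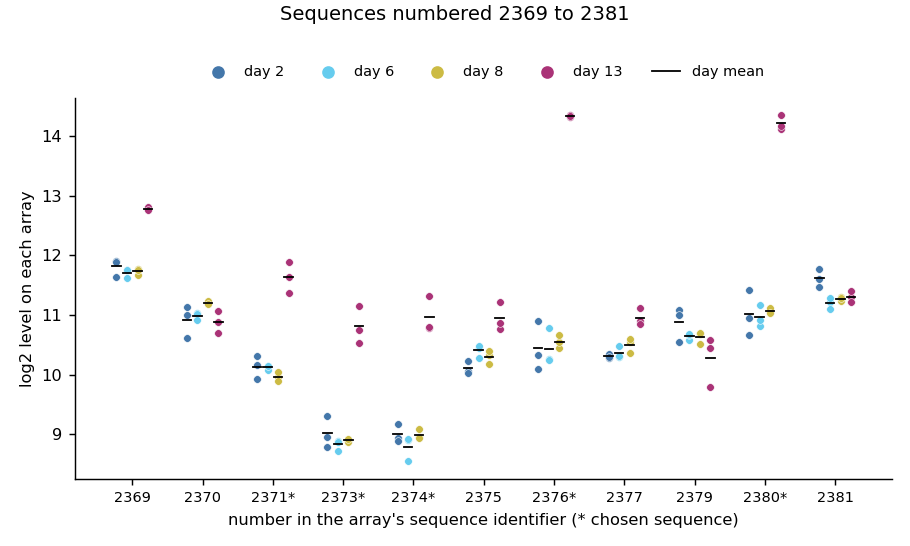
Points are the log2 levels of single arrays and bars the day means of the sequences numbered 2369 to 2381, in order of their numbers, which are evenly spaced here where numbers are missing; an asterisk marks a chosen sequence. Day 13 stands far above the earlier days at 2376 and 2380, moderately at 2371, 2373 and 2374, and not at 2370, 2379 and 2381.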

How the data were processed

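Pools of 2 cultures were measured on 12 arrays, 3 per harvest day, with days and replicate numbers taken from the titles. The deposited values are on a log2 scale, inferred from their span of 2.81 to 15.57, and RMA is the tool that the submitters' processing notes name. The probe-pair number is another deposited column.

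The 2 bounds were applied to means per day. Changes between days were fitted for all 12214 sequences with limma 3.58.1 under R 4.3.3, with Benjamini-Hochberg adjustment and no filter on dim sequences; the fit has 8 residual degrees of freedom and was tested on simulated data. The 12 largest rises are named, with the sequences at the bounds, the 3 flattest, the 2 with the widest day 13 spread, the 2 with the largest early deviation and any near background. Others were named after their values were seen. Members and lists were chosen with earlier results of these data known. The number of arrays limits the precision. Alternatives were other bounds, day medians, median centring, quantile normalization, a filter on dim sequences, trend and robust settings of eBayes, a threshold of 0.01, a replicate block and leaving out arrays.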

Additional observations from a re-analysis of the deposited data

How the results depend on the processing

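The number of chosen sequences was 196 with a minimum rise of 0.8 and 48 with 1.5, by construction, and 76 and 147 with an early range below 0.3 and 0.5. It was 118 with day medians, 115 after median centring and 112 after quantile normalization, of which 95, 111 and 104 are among the 113. Leaving out 1 array gave 104 to 127, and leaving out a replicate number on every day gave 104 to 131. Without each single array in turn, 61 of the 113 were chosen every time, 8 of the 12 largest rises among them, and 52 missed a bound at least once. The median rise was 1.38 to 1.44 without 1 array.

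The counts of sequences higher at day 13 than at days 8, 6 and 2 stayed within 1.5 times of the values given under every alternative run, at 2672 to 3294, 3178 to 3745 and 3959 to 4137 without 1 array. With the replicate number as a block they were 3112, 3569 and 4183, against 3148, 3613 and 4201 without it, and no count of calls moved by 1.5 times. Whether the numbers pair the arrays was not settled. Of 18 pairs of same-numbered arrays, 5 had deviations from the day mean that correlated above 0.1, in a range of -0.30 to 0.63. No pairs of different numbers were set beside them. The alternatives for the early days were added after seeing the data. At a threshold of 0.01, day 6 against day 2 gave 3749 sequences in place of 5635, and day 8 against day 6 gave 1360 in place of 3158, by construction. Without 1 array, day 8 against day 6 gave 1520 to 3602; the count was 1751 without day 6 array 1, 1850 without day 6 array 2 and 1520 without day 8 array 3, and the cause was not tested. Day 6 against day 2 gave 4523 to 5863 and day 8 against day 2 gave 6354 to 7469. Of 330 values for the rises of 22 named sequences, 310 moved by less than the sequence's own SD at day 13 and 0 changed sign. Some of them could not move, since the rise depends on only 1 early day, the one with the highest mean. The bound of 1 was missed by 13 of the values, the lowest at 0.895, and the largest change downward was -0.41. Signal over background limits paxillus_13312 alone among the 113.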
